A study of Mus musculus with 9 samples.

Results

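The comparison described here set crypts that lacked Smad4 and also carried a stabilised form of beta-catenin against crypts that lacked Smad4 alone. It used 6 of the 9 libraries of the study, 3 from each mutant genotype, taken by the genotype in the sample labels. Each library held RNA of crypts of the mouse jejunum, the pockets at the base of the villi where stem cells, progenitors and Paneth cells lie. The Smad4 KO mice were Smad4f/f;Villin-CreER(T2), and the double mutants were Smad4f/f; Ex3f/+;Villin-CreER(T2). In both, tamoxifen was given on 4 consecutive days and crypts were taken the day after. Both mutant groups therefore share the loss of Smad4, the recombinase and the drug, and differ by name only in the Ctnnb1 allele. The Villin promoter drives the recombinase in epithelial cells along the whole crypt and villus, so the change is not limited to stem cells. The 3 control libraries are labelled control mouse with vehicle, while the design text calls these animals uninjected. Their alleles and whether they carried the recombinase are not stated in the sources used here, and they serve below only as a reference level.

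Wnt signalling maintains crypt stem cells. Without a Wnt signal, beta-catenin is phosphorylated by a complex of Apc, Axin proteins, Csnk1a1 and Gsk3b, then ubiquitinated and degraded. With a signal it enters the nucleus and acts with TCF factors on genes such as Axin2, Lgr5 and Rnf43. Smad4 is the shared partner of the SMAD proteins through which BMP and TGF-beta signals reach their target genes, and BMP signals are strongest toward the villus, where cells differentiate.

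The Ex3 allele lets the recombinase remove exon 3 of Ctnnb1, which is shown here because it is the only named genetic difference between the groups. The GENCODE annotation of GRCm38 places this coding exon on the plus strand of chromosome 9, at chr9:120950522-120950749. It is 228 bases long, a multiple of 3, so that its loss keeps the reading frame. Capitals mark the 7 codons of the motif that, once phosphorylated, is bound by the ubiquitin ligase.
Ctnnb1 exon 3: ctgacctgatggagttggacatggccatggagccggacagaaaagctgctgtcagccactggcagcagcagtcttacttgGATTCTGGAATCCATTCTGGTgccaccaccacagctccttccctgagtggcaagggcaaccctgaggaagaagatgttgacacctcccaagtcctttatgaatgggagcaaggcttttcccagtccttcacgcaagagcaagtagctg

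Expression was given as FPKM, in which fragment numbers are divided by the transcript length and the library total, so the number of reads is unknown and the spacing of low values puts relative depth at 0.956 to 1.42 times that of control 0. The tables of the 2 genotypes were normalized separately, and each level below was set on 1 scale through the controls that both tables hold. Values are listed in the order of libraries 0, 1 and 2. Libraries of a genotype may not all come from different mice, so the p-values measure the spread between libraries. The epithelial marker Epcam was at 675 to 1036 FPKM over the 9 libraries. Smad4 KO library 0 stood apart from the other 5 mutant libraries. For 53 of 56 enterocyte genes it held the highest value of the 6, for 28 of 32 p53 target genes it also held the highest, and for 46 of 50 cell cycle genes it held the lowest. Smad4 KO library 2 and double-mutant library 0 shared a second feature, high transcripts of stroma and of red blood cells. Dcn, a fibroblast proteoglycan, was at 47.5 and 26.3 FPKM in these libraries and at 0.644 to 5.13 in the other 4, and the haemoglobin gene Hbb-b1 was at 38.3 and 25.2 against 0.53 to 2.05. In bulk RNA, fewer cells of a type cannot be told apart from less RNA per cell.

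Smad4 was at 11.02, 9.96 and 10.7 FPKM in Smad4 KO crypts and at 10.8, 9.72 and 9.51 in the double mutants, against 45.4, 57.2 and 47.7 in controls. The mutant groups overlapped, at 21.1% and 19.97% of the control mean, and the log2 difference between them was -0.07 (95% interval -0.30 to 0.16, limma). Ctnnb1 was at 369, 299 and 276 FPKM in Smad4 KO crypts and at 230, 297 and 266 in the double mutants. These ranges overlapped as well, with a log2 difference of -0.25 (95% interval -0.66 to 0.16). A gene-level value does not show what share of Ctnnb1 transcripts lacked exon 3.

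No protein-coding gene was called different between the double mutants and Smad4 KO. Limma tested 11835 genes and called 2 higher and 2 lower in the double mutants at an adjusted p below 0.05, 0.0169% of the tested genes in each direction, and all 4 were entries for small RNAs, described last. For every other gene the adjusted p was 0.999 or more. At an unadjusted p below 0.05 there were 109 genes higher (0.921%) and 56 lower (0.473%), counts that moved with the fit, as given in the closing section. In 430 genes (3.63%) the 3 double-mutant libraries lay above the 3 Smad4 KO libraries, and in 264 (2.23%) they lay below. The smallest p that an exact permutation test of 3 against 3 libraries can give is 0.1, and it is reached where the groups do not overlap. Without any difference between the groups, a share of 0.1 of genes would be expected not to overlap, both directions together. The observed share was 5.86%. Likewise a share of 0.05 would be expected at an unadjusted p below 0.05, more than in this fit. The median log2 difference over all genes was 0.0030, 50.7% of genes had a positive difference, and 260 genes differed by at least 1 in either direction. The 95% interval of a gene reached a median of 0.391 to each side, so smaller log2 differences were not detectable in a typical gene even before adjustment. The spread was larger in Smad4 KO, where genes had a median SD of 0.213 (log2 units), against 0.143 in the double mutants, and Smad4 KO was the more variable group for 70.6% of genes.

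Of the Wnt/beta-catenin feedback and target genes, 28 of the 41 in the tables reached the mean of 1 FPKM needed for testing, and 0 were called. Their median log2 difference was 0.22, against 0.0030 over all genes, and 24 were positive. Axin2, the feedback scaffold of the destruction complex, was at 12.5, 22.6 and 29.0 FPKM in Smad4 KO (21.4 ± 8.35, SD, n = 3) and at 26.7, 30.9 and 37.8 in the double mutants (31.8 ± 5.61, SD, n = 3). Smad4 KO library 0 was the lowest, library 2 lay within the double-mutant range, and the controls at 32.7, 34.3 and 22.3 FPKM spanned much of that range. The log2 difference of Axin2 was 0.61 (95% interval -0.14 to 1.37), or 0.29 without Smad4 KO library 0.

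Lgr5, the R-spondin receptor that marks crypt base stem cells, was at 2.64, 9.31 and 19.0 FPKM in Smad4 KO crypts and at 13.6, 14.2 and 20.6 in the double mutants. The controls, at 8.3, 6.92 and 6.03, all lay below the double mutants, while the Smad4 KO libraries ran from below the controls to within the double-mutant range. The log2 difference between the mutants was 0.89 (95% interval -0.59 to 2.37), or 0.23 without Smad4 KO library 0. Smoc2, a secreted matrix protein of the same cells, was at 55.4, 91.2 and 96.8 FPKM in Smad4 KO crypts and at 90.1, 87.9 and 102 in the double mutants. Smad4 KO library 0 lay at the control level of 48.3 to 58.4, and the other 2 lay within the double-mutant range. The log2 difference of Smoc2 was 0.24 (95% interval -0.31 to 0.79), and it was -0.01 without that library.

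**Figure D1:**
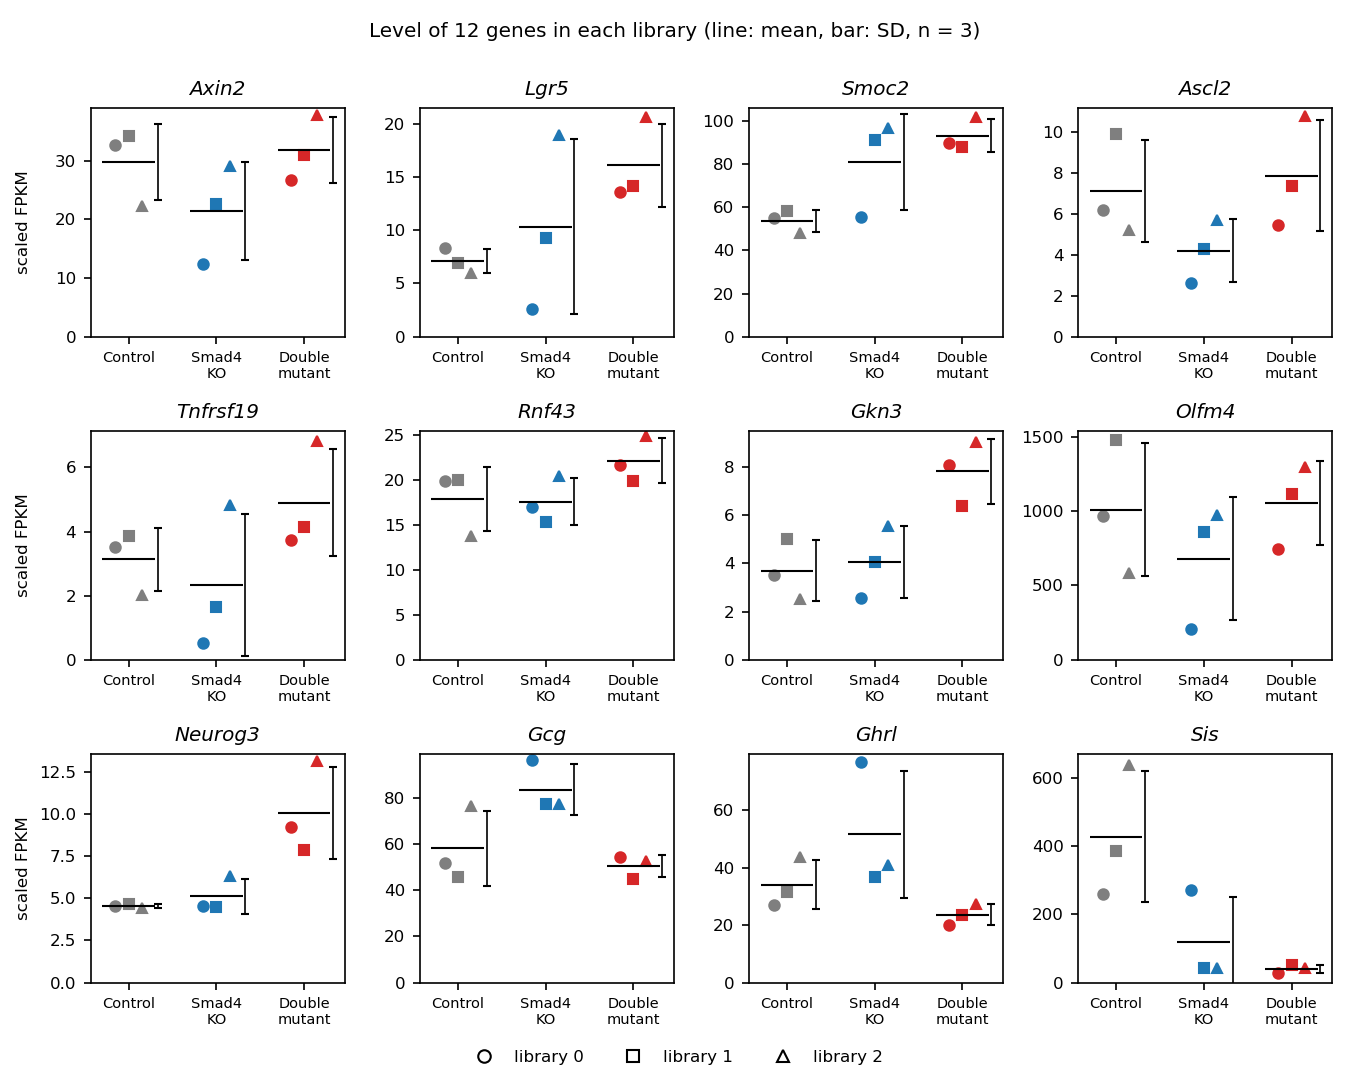
FPKM of 12 genes in each of the 9 libraries, on 1 scale, by genotype; symbols give the library number, horizontal lines the mean and bars the SD of 3 libraries (the lower bar of Sis in Smad4 KO is cut at 0). The 3 double-mutant libraries lie above the 3 Smad4 KO libraries for Gkn3 and Neurog3 and below them for Gcg and Ghrl, while the groups overlap for the other 8 genes.

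Ascl2, the transcription factor that sets stem cell identity in the crypt, was at 2.62, 4.27 and 5.72 FPKM in Smad4 KO crypts and at 5.45, 7.38 and 10.8 in the double mutants. The groups overlapped by 1 library, and controls were at 6.19, 9.92 and 5.2. Ascl2 had the smallest p of the list, with a log2 difference of 0.77 (95% interval 0.02 to 1.52, unadjusted p = 0.0462, limma adjusted p = 0.999). Tnfrsf19, a Wnt-induced receptor, was at 0.523, 1.65 and 4.82 FPKM in Smad4 KO crypts and at 3.75, 4.13 and 6.82 in the double mutants, which overlapped (log2 difference 1.01, 95% interval -0.23 to 2.24, or 0.55 without Smad4 KO library 0 and 1.52 without library 2). Rnf43, a ubiquitin ligase that removes Frizzled receptors from the cell surface, was at 17.0, 15.3 and 20.4 against 21.6, 19.9 and 24.9. Again Smad4 KO library 2 reached into the double-mutant range (log2 difference 0.32, 95% interval -0.02 to 0.66).

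Hunk, a protein kinase, was the only tested gene of this list whose double-mutant libraries (4.33, 5.81 and 7.45 FPKM) all lay above Smad4 KO (4.07, 3.63 and 4.29). The opposite held for Pros1 alone, the gene of protein S, at 1.59, 1.496 and 1.42 in Smad4 KO and 1.36, 1.31 and 1.05 in the double mutants. These 2 genes of 28 compare with 3.63% of all genes above and 2.23% below. Other targets with established roles gave small differences with wide intervals. Myc, the growth regulator, differed by 0.21 (95% interval -0.33 to 0.75), Sox9, a crypt transcription factor, by 0.22 (-0.38 to 0.82), and Ccnd1, the G1 cyclin D1, by 0.11 (-0.51 to 0.73). Cd44, an adhesion receptor, differed by 0.06 (-0.66 to 0.77), and Ephb2 and Ephb3, receptors that sort cells along the crypt axis, by 0.15 (-0.19 to 0.50) and 0.27 (-0.74 to 1.27). None of these intervals excluded 0.

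**Figure D2:**
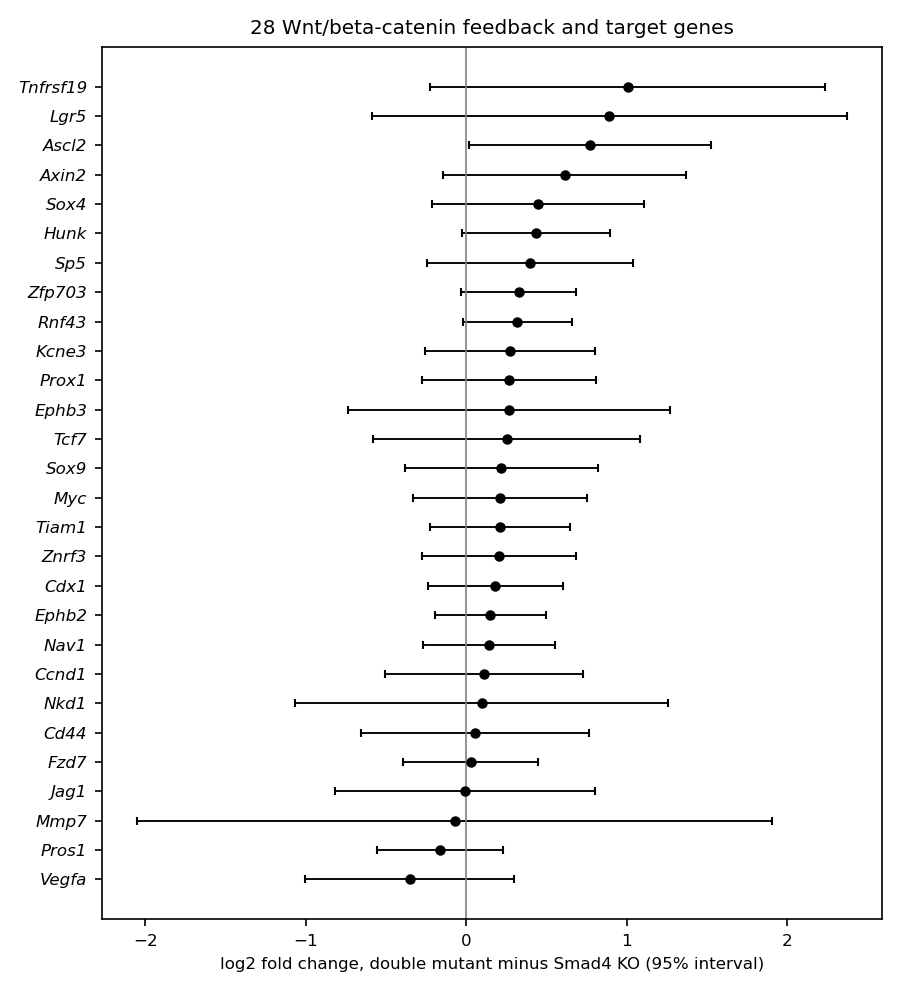
Log2 difference in log2(FPKM + 1), double mutant minus Smad4 KO, of the 28 tested Wnt/beta-catenin feedback and target genes; points are the limma estimates and bars their 95% intervals. Of the 28 points, 24 lie to the right of 0, and the interval of Ascl2 is the only one that excludes 0.

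Wnt target genes that are often used as reporters of strong pathway activity were near the bottom of the scale in every mutant library and were not tested. Notum, a secreted enzyme that inactivates Wnt ligands, was at 0.238, 0.447 and 0.655 FPKM in Smad4 KO crypts and at 0.338, 0.122 and 0.224 in the double mutants. Lef1, a TCF family factor, was at 0.203, 0.109 and 0.480 against 0.466, 0.0711 and 0.149. Apcdd1, a membrane inhibitor of Wnt, was at 0.794, 0.796 and 1.02 against 1.03, 0.678 and 1.09. The ranges overlapped for Notum, Lef1 and Apcdd1. Dkk2 and Tdgf1 were listed at 0 in all 6 libraries, and a listed 0 in these tables can be a failed estimate.

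The Wnt receptors, the destruction complex and the TCF factors differed little. Of 42 listed genes 36 were tested, 0 were called, none had groups that did not overlap, and the median was 0.01 with 21 positive. Apc, the scaffold that brings beta-catenin to its kinases, was at 13.0, 12.6 and 10.2 FPKM in Smad4 KO crypts and at 9.49, 12.4 and 11.4 in the double mutants. Tcf7l2, the main TCF factor of the intestinal epithelium, was at 22.0, 12.5 and 12.8 against 14.9, 11.8 and 12.7, with Smad4 KO library 0 the highest. Intervals of the log2 difference were -0.44 to 0.25 for Apc, -0.35 to 0.29 for the kinase gene Gsk3b, -0.35 to 0.35 for the kinase gene Csnk1a1 and -0.24 to 0.29 for the co-receptor gene Lrp5.

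Crypt base stem cell markers lay higher on average in the double mutants, but 0 of 37 tested genes were called. The median log2 difference was 0.32, and 32 genes were positive. The mean of the list, relative to the control mean, was -0.31, 0.03 and 0.29 in Smad4 KO libraries 0, 1 and 2 and 0.19, 0.25 and 0.51 in the double mutants. Smad4 KO library 2 thus lay above 2 of the 3 double-mutant libraries, and library 0 held the lowest of the 6 values for 23 of the 37 genes. Double-mutant library 2 held the highest of the 6 values for 24 of the 37 stem cell genes and for 13 of the 28 Wnt target genes. Without Smad4 KO library 0 the medians were 0.16 for the stem cell list and 0.15 for the Wnt target list. Without double-mutant library 2 they were 0.20 and 0.16. Without Smad4 KO library 2 they were 0.45 and 0.44, and without both stroma-rich libraries 0.49 and 0.44. The 2 lists share members, among them Lgr5, Axin2 and Ascl2.

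Gkn3, a secreted gastrokine that marks stem cells in mouse intestine, was at 2.55, 4.05 and 5.56 FPKM in Smad4 KO crypts and at 8.09, 6.37 and 9.04 in the double mutants, with controls at 3.53, 5.03 and 2.52. The double mutants lay above all other libraries, at 1.93 times the Smad4 KO mean. The log2 difference was 0.84 (95% interval 0.22 to 1.46, unadjusted p = 0.0156, limma adjusted p = 0.999), and 0.61 without Smad4 KO library 0. Lrig1, a negative regulator of EGF receptors, was the other stem cell gene without overlap, at 45.5, 44.3 and 43.3 against 48.0, 48.3 and 52.4 FPKM. These 2 of 37 stem cell genes compare with 3.63% of all genes above. Olfm4, an abundant secreted stem cell glycoprotein, was at 208, 858 and 976 in Smad4 KO and at 743, 1115 and 1300 in the double mutants. Its log2 difference of 0.87 had an interval from -0.66 to 2.41, and Smad4 KO library 0 was the lowest by far.

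**Figure D3:**
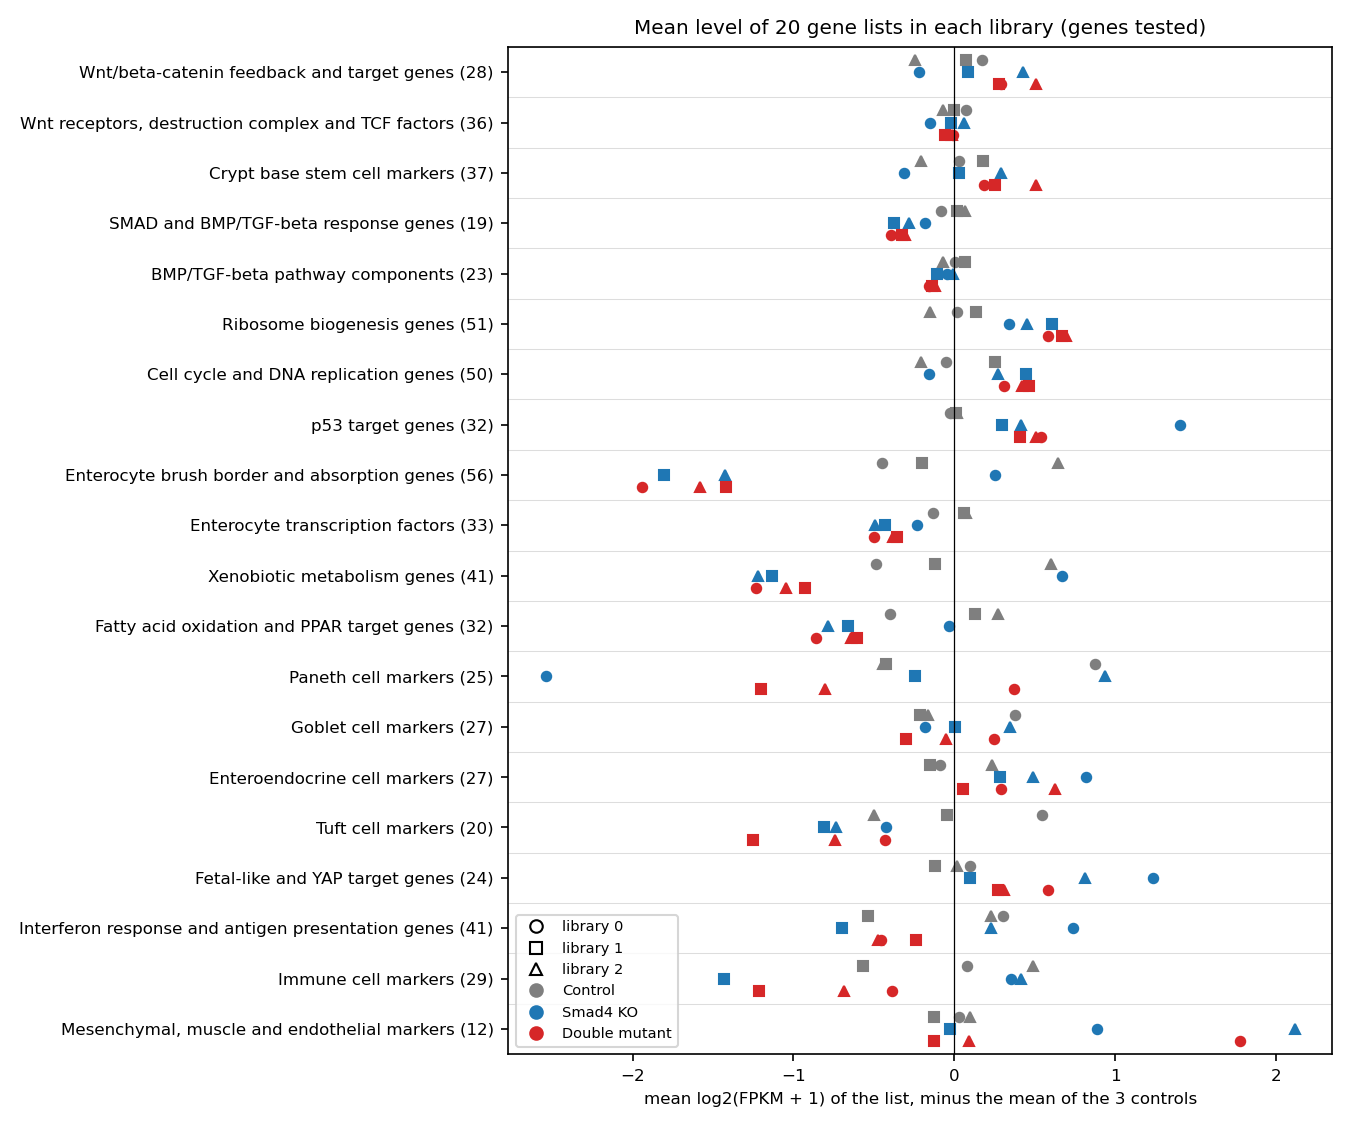
Mean log2(FPKM + 1) of 20 gene lists in each library minus the mean of the 3 controls, with the number of tested genes in brackets; colour gives the genotype and the symbol the library number. Smad4 KO library 0 (blue circles) lies apart for the enterocyte, xenobiotic, p53 and Paneth lists, and Smad4 KO library 2 and double-mutant library 0 lie apart for the mesenchymal list.

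Genes of mature enterocytes were lower on average in the double mutants than in Smad4 KO, and this rested on 1 library. All 56 tested brush border and absorption genes had a negative difference (median -0.63), 0 were called and 1 had groups that did not overlap, beside 2.23% of all genes. Relative to the control mean the list stood at 0.26, -1.81 and -1.43 in Smad4 KO and at -1.94, -1.42 and -1.58 in the double mutants. Without Smad4 KO library 0 the median was -0.01. Sis, the sucrase-isomaltase of the brush border, was at 272, 43.4 and 42.4 FPKM in Smad4 KO crypts and at 28.7, 51.9 and 42.6 in the double mutants, with controls at 262, 385 and 640. Smad4 KO libraries 1 and 2 lay within the double-mutant range, and library 0 lay within the control range. Apoa1, an apolipoprotein of chylomicrons, was likewise highest in Smad4 KO library 0, at 3665, 190 and 603 against 198, 396 and 377 FPKM. Slc51b, a subunit of the bile acid exporter, was the gene without overlap, at 37.5, 14.4 and 15.6 against 9.95, 12.3 and 10.0 (log2 difference -0.87, 95% interval -1.76 to 0.01, or -0.45 without Smad4 KO library 0).

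The 33 tested enterocyte transcription factors had a median of -0.00026 (0.035 when scaled without the 50 highest genes), with 16 positive and 0 called. Cdx2, the homeobox factor of intestinal identity, was at 71.8, 90.1 and 65.8 FPKM in Smad4 KO crypts and at 83.9, 93.0 and 103 in the double mutants, which overlapped (log2 difference 0.30, 95% interval -0.07 to 0.67). Xenobiotic metabolism genes, with a median of -0.51 over 41 genes, and fatty acid oxidation genes, with -0.21 over 32, rested on the same library. Without it these medians were 0.11 and 0.04. The sulfotransferase gene Sult1d1 was at 32.9, 42.7 and 21.8 against 16.7, 23.3 and 19.3 FPKM, with overlap (log2 difference -0.65, 95% interval -1.28 to -0.02, limma adjusted p = 0.999).

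Of 27 tested enteroendocrine markers 0 were called, and the median was -0.17 (0.01 without Smad4 KO library 0), with 8 positive. The groups did not overlap for 1 gene that was higher and 3 that were lower, beside 3.63% and 2.23% of all genes. Neurog3, the transcription factor that commits progenitors to the enteroendocrine fate, was at 4.55, 4.46 and 6.31 FPKM in Smad4 KO crypts and at 9.21, 7.86 and 13.1 in the double mutants. Controls were at 4.53, 4.67 and 4.44, below every double-mutant library and close to Smad4 KO libraries 0 and 1. The log2 difference was 0.84 (95% interval 0.32 to 1.36, unadjusted p = 0.00757, limma adjusted p = 0.999), a ratio of means of 1.97, and 0.78 without Smad4 KO library 0. With each library left out in turn, this difference ranged from 0.65 to 0.99. Neurog3 was among the genes named by a small p and groups that did not overlap, so leaving out 1 library could not change its sign. Neurod1, which acts after Neurog3, was at 3.06, 3.73 and 4.33 against 3.88, 3.07 and 5.53, with overlap (log2 difference 0.11, 95% interval -0.41 to 0.63).

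Gcg, which encodes the glucagon-like peptides of L cells, was at 96.3, 77.1 and 77.1 FPKM in Smad4 KO crypts and at 54.1, 44.9 and 52.4 in the double mutants. All double-mutant libraries were lower than all Smad4 KO libraries and lay within or just below the control range of 45.8 to 76.4. The log2 difference was -0.71 (95% interval -1.04 to -0.39, unadjusted p = 0.00169, limma adjusted p = 0.999), and it ranged from -0.76 to -0.61 when each library was left out in turn. Gcg and Ghrl were named in the same way as Neurog3, so their sign could not change either. Ghrl, the ghrelin gene, was at 76.8, 36.8 and 40.9 against 20.03, 23.5 and 27.3 FPKM. The log2 difference was -1.03 (95% interval -1.74 to -0.31, limma adjusted p = 0.999), and -0.70 without Smad4 KO library 0, which was the highest. Tac1, the gene of substance P, was at 33, 25.4 and 29.0 against 15.9, 17.2 and 25.5 FPKM, with overlap at a single library (log2 difference -0.57, 95% interval -1.06 to -0.09). Isl1, a factor of several hormone-producing cells, was the remaining gene without overlap, at 2.88, 1.64 and 2.02 against 1.51, 0.877 and 1.61 FPKM. The groups overlapped for the other hormone genes tested. Their log2 differences were -0.81 for Cck, -0.89 for Sst, -0.69 for Pyy, -0.38 for Gip, -0.23 for Nts and 0.19 for Sct, and the 95% interval of each included 0. The general granule protein gene Chga, at 103, 70.6 and 68.3 against 59.5, 45.9 and 84.8 FPKM, overlapped (log2 difference -0.36, 95% interval -1.01 to 0.29).

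Paneth cell genes varied widely between libraries of the same genotype. Paneth cell markers, with 25 tested genes and 0 called, stood at -2.54, -0.25 and 0.94 relative to control in Smad4 KO and at 0.37, -1.20 and -0.80 in the double mutants. The median difference was 0.05, and it was -0.95 without Smad4 KO library 0 and 0.82 without Smad4 KO library 2. Lyz1, the Paneth cell lysozyme, was at 1928, 9060 and 29822 FPKM in Smad4 KO crypts and at 12707, 5921 and 10595 in the double mutants, all within the Smad4 KO range. Reads of defensin genes and of Lyz1 may be shared with near-identical copies. Goblet cell markers had a median of -0.11 over 27 genes (0.09 without Smad4 KO library 2), with Muc2, the main mucin, at 363, 310 and 362 against 405, 230 and 302 FPKM. Tuft cell markers had a median of -0.12 over 20 genes (0.07 without double-mutant library 1), with Dclk1 at 4.79, 4.34 and 2.90 against 5.04, 2.71 and 4.22. The 30 Notch pathway and fate genes, which include Neurog3, had a median of 0.04. Atoh1, the factor that sets secretory fate upstream of Neurog3, was at 13.4, 23.4 and 28.5 against 25.1, 17.7 and 23.3 FPKM, with overlap.

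Genes of BMP and TGF-beta signalling gave small differences between the mutant genotypes. Of 19 tested SMAD response genes 0 were called, with a median of -0.02 (0.015 when scaled without the 50 highest genes). Id1 and Id3, inhibitors of differentiation factors that BMP signals induce, overlapped between the mutants. Id1 was at 20.9, 28.5 and 25.7 FPKM in Smad4 KO crypts and at 29.6, 31.4 and 27.6 in the double mutants, and Id3 at 9.48, 13.6 and 12.4 against 12.4, 16.5 and 11.4. Tgfbi, a TGF-beta-induced matrix protein, was at 21.4, 10.8 and 10.2 against 6.14, 9.66 and 8.73, without overlap (log2 difference -0.67, 95% interval -1.42 to 0.09, or -0.34 without Smad4 KO library 0). Klf10, a TGF-beta-induced zinc finger factor, was the other response gene without overlap, at 25.7, 23.7 and 22.4 against 20.6, 22.3 and 19.7 (log2 difference -0.19, 95% interval -0.42 to 0.04). These 2 of 19 response genes compare with 2.23% of all genes below. Among 23 pathway components the median was -0.06, and for 3 of them, beside 2.23% of all genes, the double mutants lay below Smad4 KO. Relative to the control mean this list stood at -0.04, -0.10 and -0.01 in Smad4 KO and at -0.16, -0.14 and -0.12 in the double mutants, the only list whose library means did not overlap, by a gap smaller than the spread within Smad4 KO. The receptor gene Acvr1 was at 9.12, 7.61 and 7.88 against 6.81, 7.33 and 7.57, the ligand gene Bmp2 at 3.56, 1.92 and 2.19 against 1.75, 1.65 and 1.55, and the transducer gene Smad3 at 9.39, 9.83 and 9.40 against 8.67, 8.23 and 8.88 FPKM. None of the 3 was called.

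Ribosome biogenesis genes showed small differences that were nearly all positive. Of 51 tested, 50 had a positive difference, with a median of 0.20, and 0 were called. In 12 of the 51 the double mutants lay above all Smad4 KO libraries, beside 3.63% of all genes, and 6 had an unadjusted p below 0.05, beside 0.921%. Genes of 1 pathway can vary together across libraries, so the 51 are not independent. Nob1, an endonuclease that trims the small-subunit RNA, was at 27.3, 27.4 and 25.4 FPKM in Smad4 KO crypts and at 32.2, 31.7 and 34.3 in the double mutants (log2 difference 0.29, 95% interval 0.08 to 0.49). Nop56, a core protein of box C/D particles, was at 52.0, 58.8 and 49.4 against 65.7, 61.3 and 71.8 (0.31, 0.04 to 0.58). Gar1 and Nhp2, proteins of box H/ACA particles, were at 53.2, 59.6 and 55.1 against 70.3, 65.1 and 68.7, and at 75.5, 87.8 and 81.6 against 97.4, 106 and 97.2. For Nob1, Nop56, Gar1 and Nhp2 each double-mutant library lay above each Smad4 KO library and above the controls. Relative to the control mean the list stood at 0.34, 0.60 and 0.45 in Smad4 KO and at 0.58, 0.67 and 0.70 in the double mutants. Smad4 KO library 1 thus lay above double-mutant library 0. Smad4 KO library 0 held the lowest of the 6 values for 37 of the 51 genes, and without it the list median was 0.11.

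Genes of the cell cycle and of DNA replication showed a median of 0.22, with 49 of 50 positive, 0 called and 2 without overlap, beside 3.63% of all genes. Smad4 KO library 0 held the lowest value for 46 of them, and without it the median was 0.05. Gins2, a subunit of the replicative helicase, was at 14.0, 22.0 and 23.8 FPKM in Smad4 KO crypts and at 26.1, 24.4 and 26.5 in the double mutants. Mki67, the proliferation marker, overlapped at 36.9, 62.7 and 40.6 against 45.4, 60.1 and 51.6. The p53 target genes (32 tested, 0 called) stood at 1.41, 0.30 and 0.41 relative to control in Smad4 KO and at 0.54, 0.41 and 0.51 in the double mutants. Cdkn1a, the p53-induced cell cycle inhibitor, was at 241, 48.0 and 61.1 against 65.5, 57.9 and 53.5 FPKM. Only Smad4 KO library 0 was high, and the list median went from -0.21 to 0.10 without it.

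Transcripts of other cell types also had negative medians, with wide spread between libraries. All 29 tested immune cell markers had a negative difference (median -0.52, and 0 called). The median was -0.14 without Smad4 KO library 0 and -1.22 without Smad4 KO library 1. Relative to the control mean the list stood at 0.36, -1.43 and 0.42 in Smad4 KO and at -0.39, -1.22 and -0.68 in the double mutants. Their summed level ran from 59.1 to 458 FPKM in Smad4 KO and from 84.3 to 177 in the double mutants. Ptprc, the leukocyte antigen CD45, was at 6.75, 0.985 and 8.64 against 2.81, 1.12 and 2.69 FPKM, so Smad4 KO library 1 was below the lowest double mutant. Interferon response and antigen presentation genes had a median of -0.43 over 41 genes. It was -0.11 without Smad4 KO library 0 and -0.82 without Smad4 KO library 1. The 12 tested mesenchymal and endothelial markers summed to 12.8 to 126 FPKM in Smad4 KO and 10.0 to 86.6 in the double mutants, with 1 high library in each group. Their median was -0.40, or 0.14 without Smad4 KO library 2 and -0.95 without double-mutant library 0. Fetal-like and YAP target genes had a median of -0.26 over 24 genes. It was 0.07 without Smad4 KO library 0 and -0.59 without Smad4 KO library 1. The part of immune, stromal or blood RNA in any difference above was not tested.

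The 4 called entries were small RNA genes, named here after their values were seen. Mir7001 was listed at 0 in the 3 Smad4 KO libraries and at 101, 121 and 133 FPKM in the double mutants (limma adjusted p = 2.54e-05). Snord91a, a box C/D small nucleolar RNA, was listed at 0 in Smad4 KO and at 2178, 3454 and 943 (limma adjusted p = 0.00122). In the other direction, Mir7028 was at 1117, 488 and 1192 FPKM in Smad4 KO and listed at 0 in the double mutants (limma adjusted p = 0.000711). Mir343 was at 894, 196 and 148 and listed at 0 in the double mutants (limma adjusted p = 0.0457). The Mir343 call was lost without Smad4 KO library 1 (adjusted p = 0.148) and without double-mutant library 0, 1 or 2 (0.184, 0.240 and 0.152). With all 9 libraries in 1 fit none of the 4 was called. Each of the 4 reached the mean of 1 FPKM only through the group where it was above 0. The zeros leave no spread in the other group, and a listed 0 can be a failed estimate. The exact permutation test gave p = 0.1 for each, the smallest it can give. The controls, of a single group, were themselves split between 0 and high values. They were listed at 0, 136 and 92.4 for Mir7001, at 0, 0 and 2744 for Snord91a, at 547, 0 and 1129 for Mir7028 and at 0, 0 and 431 for Mir343.

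Their mature products, from RefSeq for GRCm38.p6, are shown because these are the microRNA entries that passed, with the seed (bases 2 to 8) in capitals. No seed was shared between them, and RefSeq gave both arms for Mir7001 and Mir7028.
mmu-miR-343: uCUCCCUUcaugugcccaga
mmu-miR-7001-5p: aGGCAGGGugugagcgugagcau
mmu-miR-7001-3p: cGCUCACAcucccucugcag
mmu-miR-7028-5p: uGGGCUGAggcuugggucaggag
mmu-miR-7028-3p: cCUUCUCUucccccucggccag

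The entries are short, 60 to 79 bases, and the libraries were made with a kit for long RNA, so the values are not levels of mature microRNA. Each entry lies within another gene, in RefSeq's annotation, and none of those genes was called. Cd82, which holds Mir7001, was at 120, 72.7 and 77.3 FPKM in Smad4 KO crypts and at 70.0, 78.1 and 69.7 in the double mutants. Ercc2, which holds Mir343, was at 17.4, 17.6 and 18.3 against 21.04, 17.6 and 22.0, and Tchp, which holds Mir7028, at 7.18, 5.72 and 4.99 against 6.69, 4.95 and 6.73. Snord91a lies in Tsr1, at 29.9, 43.4 and 37.8 against 40.7, 42.7 and 46.2 FPKM, and also overlaps Srr. Of 326 small RNA entries tested, 46.6% were at 0 in some but not all Smad4 KO libraries, 46.0% in some double-mutant libraries and 37.1% in some controls. Among the other 11509 genes these shares were 0.156%, 0.174% and 0.243%. With the small RNA entries left out, limma called 0 of 11509 genes, and 146 had an unadjusted p below 0.05.

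**Figure D4:**
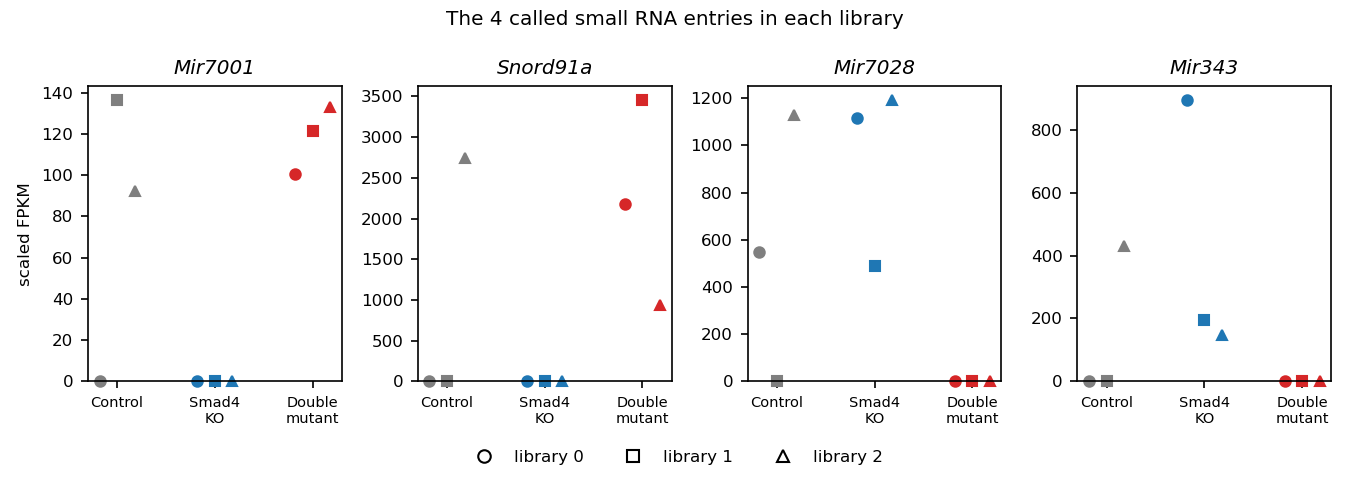
FPKM of the 4 called small RNA entries in each of the 9 libraries, by genotype, with the library number as symbol. Each entry is at 0 in all 3 libraries of 1 mutant group and above 0 in all 3 of the other, while the 3 controls hold both zeros and values above 0.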

How the data were processed

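RNA of jejunal crypts was sequenced from 3 control, 3 Smad4 KO and 3 double-mutant libraries. The deposited values are FPKM for 23951 genes in 2 tables, each with its mutant group and the same controls. The submitters' processing notes name build mm9, Cuffdiff 2.2.1, Cuffnorm 2.2.1 and TopHat2 2.1.1. Which annotation was used is not stated there. Libraries were made with a TruSeq kit, version 2, per the labels' protocols, which does not mark strand, so overlapping genes cannot be told apart by strand.

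Tables were joined by symbol. Each control differed between them by a single factor (1.03, 1.06 and 1.04), and double-mutant values were divided by the mean factor, 1.04. Median-of-ratios scaling over the 6 mutant libraries followed, on 14400 genes. Limma 3.58.1 in R 4.3.3 tested log2(FPKM + 1) of genes whose mean reached 1 FPKM, two-sided, with empirical Bayes moderation that follows the mean-variance trend and Benjamini-Hochberg adjustment over all tested genes. Log2 differences on this scale understate changes of low genes. The code was tested on simulated data.

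The members and lists were chosen with earlier results of these data known. The rule named Smad4, Ctnnb1, Lgr5, Axin2 and Smoc2, up to 15 genes in each direction by p, and up to 4 per list. Genes picked by p, such as Gkn3, Neurog3, Gcg and Ghrl, also had to have groups that did not overlap. Their intervals and their values with 1 library left out are therefore no separate support. Of these only genes whose roles or values a result needed are printed, and genes outside the rule, such as Sis, Olfm4 or Mki67, were chosen with their values known. List counts carry no test. Sexes, read from Xist and Y-linked transcripts, were mixed in each group. Among the mutants, Smad4 KO library 0 and double-mutant library 1 were male and the rest female. Alternatives, 12 planned and 3 added after seeing the data, are given in the closing section.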

Additional observations from a re-analysis of the deposited data

How the results depend on the processing

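There were also 2 genes higher and 2 lower with pseudocount 0.1, a minimum of 5 FPKM, the table factor alone, quantile normalization, scaling without the 50 highest genes, sex as a covariate and, added after seeing the data, library quality weights. Genes lower numbered 1 without the trend, without the filter on low values, and with pseudocount 5, where Mir343 was the call lost (adjusted p = 0.0626, 0.142 and 0.313). With all 9 libraries in 1 fit, 0 genes were called in either direction, with 172 at an unadjusted p below 0.05. With each library left out in turn, 2 to 8 genes were higher and 2 to 6 lower; the lone call outside small RNA entries was Gm12238, without Smad4 KO library 0. Without Smad4 KO library 2 there were 8 higher and 6 lower. Added after seeing the data, leaving out small RNA entries gave 0 and 0, and leaving out Smad4 KO library 2 with double-mutant library 0 gave 14 and 8, all small RNA entries. The cause was not tested, except that small RNA entries were the calls removed. Counts at an unadjusted p below 0.05 moved further, from 109 higher and 56 lower in the main fit. They were 402 and 460 with quality weights, and 263 and 482 without Smad4 KO library 1. Without double-mutant library 2 they were 38 and 29. The quality weights ran from 0.246 for Smad4 KO library 0 to 7.26 for double-mutant library 2. The cause of these shifts was not tested.

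Replicate numbers did not pair the libraries: same-numbered deviations correlated at -0.14, -0.01 and -0.04, and the highest correlation was 0.15, between Smad4 KO library 2 and double-mutant library 0. With the replicate number as a block, 1 gene was higher and 1 lower, with Mir343 and Snord91a lost (adjusted p = 0.554 and 0.0602).

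Some uncalled differences changed sign. With each library left out, values ranged from -0.71 to 1.83 for Defa22, -0.97 to 0.16 for Gdf15, -0.98 to 1.25 for Hba-a2, -0.97 to 0.16 for Slc10a2, -0.012 to 0.39 for Smoc2 (0.41 without both stroma-rich libraries), -2.40 to 0.18 for Dcn, -1.78 to 0.84 for Hbb-b1, -1.05 to 0.92 for Hbb-bt and -1.22 to 0.058 for Lyz2. Hba-a2 was at -0.057 with pseudocount 5 and -1.79 with quality weights, which gave -0.0078 for Ctnnbip1 and -0.76 for Defa22. Read numbers are unknown, and 3 libraries against 3 limited the precision.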

Other observations

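The nonclassical MHC class I gene H2-T22 was named by its small p, and H2-T24 and H2-M3 were chosen after their values were seen, so they stand for no group of genes. H2-T22 was at 5.57, 7.42 and 6.17 FPKM in Smad4 KO crypts and at 2.26, 4.14 and 3.05 in the double mutants, with controls at 4.31, 2.29 and 4.18 (log2 difference -0.85, 95% interval -1.34 to -0.36). H2-T24 was at 5.81, 4.22 and 4.68 against 3.06, 3.65 and 2.28, and H2-M3 at 5.19, 4.86 and 6.26 against 3.49, 4.23 and 3.87. The mutant groups did not overlap for any of the 3, beside 2.23% of all genes with the double mutants below. Because the 3 were picked on their values, this is no result about MHC genes. Of the 41 tested interferon response and antigen presentation genes, 0 had groups that did not overlap. None of the 3 was called (limma adjusted p = 0.999), and reads of H2-T22 and H2-T24 may be shared with similar copies.

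Slc14a1, a urea transporter gene, was at 7.75, 10.8 and 11.7 FPKM in Smad4 KO crypts and at 12.7, 14.6 and 25.3 in the double mutants, with controls at 7.48 to 9.39. The double mutants lay above the other 6 libraries, with a log2 difference of 0.70 (95% interval 0.01 to 1.38, limma adjusted p = 0.999), or 0.42 without double-mutant library 2. Hdc, the enzyme that makes histamine, was at 0.701, 0.272 and 0.849 against 1.49, 0.926 and 1.95, also without overlap (0.61, -0.03 to 1.24). Lcn2, an iron-sequestering defence protein, was at 3.49, 1.85 and 4.00 against 1.18, 1.57 and 1.60 (-0.71, -1.32 to -0.10).

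The remaining lists held 0 called genes. Genes of EGF family signalling had a median log2 difference of -0.12 over 20 genes (0.18 without Smad4 KO library 0), immediate early and heat shock genes -0.13 over 22 (0.02 without that library), and antimicrobial genes -0.30 over 17 (-0.56 and -0.61 without double-mutant libraries 0 and 1, and -0.52 without Smad4 KO library 1). Dusp6, a phosphatase induced by ERK signalling, was at 27.2, 4.14 and 14.0 FPKM against 8.04, 7.59 and 6.56, so that Smad4 KO libraries lay on both sides of the double mutants. Cholesterol synthesis genes had a median of -0.0037 over 24 genes (-0.16 and 0.08 without double-mutant libraries 1 and 2). Epithelial and regional identity markers had a median of 0.01 over 16 genes (0.16 without Smad4 KO library 0). Fabp6, an ileal bile acid carrier, was at 520, 179 and 193 against 105, 243 and 63.4 FPKM.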
